A study of Mus musculus with 8 samples.

Results

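The integrin cluster on mouse chromosome 7 holds, side by side, the genes Itgam, Itgax and Itgad. The window examined was every region of the ATAC-seq count table that starts at or above 127980000 and ends at or below 128300000 on that chromosome, which gave 31 of the 59906 regions of the table, 30 of them among the 59247 with enough counts to be tested. The window was chosen because these counts had already shown raised regions there, so the difference between genotypes inside it is described here and not tested again. ATAC-seq uses a transposase that inserts sequencing adapters into accessible DNA, and the read count at a region stands for how often it was cut. The cells were splenic cDC1, the conventional dendritic cells of type 1, purified by sorting, with 1 library per sample: 4 from CD11c-Cre;OPA1 flox mice, called OPA1-deficient, and 4 from WT mice. OPA1 is a GTPase that joins the inner membranes of fusing mitochondria and holds their cristae in form. The Cre recombinase is driven by regulatory sequence of CD11c, the protein encoded by Itgax, which is most active in dendritic cells and also active in some macrophages and other leukocytes. The labels do not give the Cre construct, where it sits in the genome, whether the WT mice carried it, which part of Opa1 is floxed, or the age of the mice.

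The genes of the cluster encode the α chains CD11b (Itgam), CD11c (Itgax) and CD11d (Itgad), each of which pairs with the β2 chain CD18, encoded by Itgb2. The resulting receptors, among them complement receptors 3 and 4, bind complement fragments, fibrinogen and adhesion molecules of the ICAM family and serve leukocyte adhesion and uptake of opsonised particles. CD11c is the usual surface marker of dendritic cells, whereas CD11b is carried by cDC2, monocytes, macrophages and neutrophils and is low on cDC1, and CD11d is best known from macrophages of the splenic red pulp. The α chains are paralogs, and the handling of reads that match several places is not given in the sources used here.

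Sequences just before the starts of the genes are shown because the 2 starts fall on different sides of the left border described below. RefSeq promoter windows (build GRCm38.p6, plus strand, 250 bases) were found for 2 of the 3 genes, Itgam at chr7:128062390-128062639 and Itgax at chr7:128129300-128129549, the last bases of which lie inside the Itgax gene model. Capitals mark matches to 6 short motifs searched on both strands: GAGGAA (PU.1), TGANTCA (AP-1), GGGCGG (GC box), TGTGGT (RUNX), TTGCNNAA (C/EBP) and the ETS-IRF composite element.
Itgam: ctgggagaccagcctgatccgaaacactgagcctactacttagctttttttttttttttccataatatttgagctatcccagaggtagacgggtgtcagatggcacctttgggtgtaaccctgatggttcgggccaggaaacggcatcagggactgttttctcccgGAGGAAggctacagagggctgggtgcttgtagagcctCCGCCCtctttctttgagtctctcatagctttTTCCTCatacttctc
Itgax: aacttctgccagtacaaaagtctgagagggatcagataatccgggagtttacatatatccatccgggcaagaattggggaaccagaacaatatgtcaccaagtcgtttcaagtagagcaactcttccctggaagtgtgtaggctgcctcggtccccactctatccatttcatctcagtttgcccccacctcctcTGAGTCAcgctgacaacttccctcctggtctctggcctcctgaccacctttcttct
The Itgam window held GAGGAA on the plus strand 84 bases before its end and on the minus strand 15 bases before it, and a GC box on the minus strand 47 bases before it. The Itgax window held TGAGTCA on the plus strand 56 bases before its end, and no match overlapped another. Such matches are common: among 32851 promoter windows of the same length, 23.3% held GAGGAA, 32.7% the GC box and 6.75% the AP-1 motif. No match was found in these windows for the RUNX, ETS-IRF and C/EBP letters, which 14.0%, 2.3% and 9.56% of windows held. The deposited regions cover 133 of the 250 bases of the Itgam window, all 3 of its matches included, and all 250 bases of the Itgax window.

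Counts in regions totalled 5522153 to 7590578 in the OPA1-deficient libraries and 4660826 to 6777651 in the WT libraries. A tested region of the window had 6 to 1012 counts per library, with a median of 44. Levels are CPM, a region's share of its library's counts brought to a common depth with TMM scaling. They are given for replicates 1 to 4 in turn or as mean ± SD (n = 4 in each group). A log2 fold change sets OPA1-deficient over WT, with the standard error of the edgeR fit after ±. Of the 14 cDC1 markers examined, 13 had a tested region within 1 kb of a gene end, with a summed level of 269 to 286 CPM in OPA1-deficient and 262 to 289 CPM in WT libraries, and the XCR1 gene Xcr1 averaged 18.0 ± 3.76 and 18.2 ± 3.84 CPM. The single tested region inside Opa1, at its start, averaged 39.2 ± 3.73 CPM in OPA1-deficient and 42.1 ± 3.85 CPM in WT libraries (log2 fold change -0.11 ± 0.12), which does not check the deletion, since deleting internal exons need not alter it. The labels do not tie libraries to separate animals, so the spread between them may be partly technical.

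A continuous stretch of 146.8 kb had higher counts in OPA1-deficient cDC1. It ran from just inside the 5′ side of the Itgam gene model, across Itgax and Itgad, to beyond Cox6a2 (128063285 to 128210087 on chromosome 7), and all 17 tested regions in it had a log2 fold change above 0, beside 49.3% of all tested regions. The summed level of these regions was 380.8, 346.2, 401.0 and 306.5 CPM in OPA1-deficient libraries, against 162.5, 221.4, 187.5 and 192.0 CPM in WT libraries. Every OPA1-deficient library lay above every WT library, and the ratio of the means (358.6 ± 41.5 over 190.9 ± 24.2 CPM) was 1.88. Each OPA1-deficient library alone stood at 1.99, 1.81, 2.1 and 1.61 times the WT mean, so replicate 4 was the lowest and replicate 3 the highest. In bulk nuclei, a larger share of cells with open chromatin and more openness per cell cannot be told apart. The counts were also not set against a DNA input, so the number of DNA copies of the stretch and the accessibility per copy cannot be told apart.

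**Figure D1:**
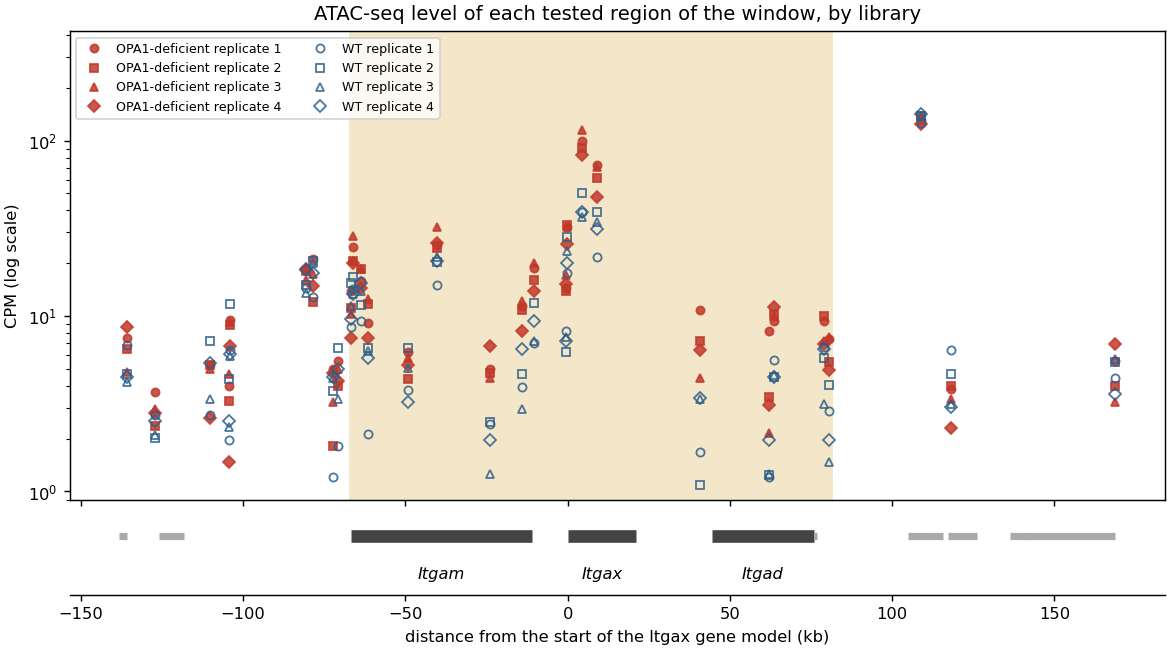
Level of each tested region of the window (CPM, log scale) against its distance in kb from the start of the Itgax gene model, for OPA1-deficient (red) and WT (blue) libraries, with 1 point per library and the raised stretch shaded. Inside the stretch the red points lie above the blue ones in 14 of 17 regions, beside 1.84% of all tested regions. The highest levels inside the stretch, 83.1 to 115 CPM in OPA1-deficient libraries, are inside Itgax.

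The edgeR quasi-likelihood test called 3 of the 30 tested regions at an adjusted p of 0.05, all higher in OPA1-deficient libraries, where 0.00506% of all tested regions were called higher and 0.0203% in either direction. DESeq2 called 7 and limma-voom 1, beside 0.0179% and 0.00169% of their tested regions called higher. The groups did not overlap in 14 of the 30, all with OPA1-deficient libraries higher and all inside the stretch, beside 1.84% of all tested regions. The window was chosen on this contrast, so nothing is read from these shares. At the rule's own limits, the first region inside on the left, at Pycard, had a log2 fold change of 0.43 ± 0.26. On the right, the last region inside, at Rusf1, had 0.04 ± 0.29, and the first outside -0.11 ± 0.23.

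Itgax, the CD11c gene, held the largest part of the difference. Its 3 regions (gene model 128129526 to 128150657) summed to 204.4, 184.7, 218.3 and 156.3 CPM in OPA1-deficient libraries, against 78.14, 117.8, 94.29 and 90.55 CPM in WT libraries. The groups were well apart, with a ratio of 2.01, and these regions made up 57.0% of the summed difference of the stretch, while they held 49.9% of its level in WT cells. Per kb of region they had a higher level than the other parts of the stretch, at 137 CPM per kb in OPA1-deficient and 68.1 CPM per kb in WT libraries.

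The most accessible region of the stretch lay inside Itgax (128133563 to 128134068). It had 99.4, 90.6, 115 and 83.1 CPM in OPA1-deficient libraries, against 39.1, 50.3, 36.7 and 39.1 CPM in WT libraries. The lowest OPA1-deficient library was above the highest WT library by a wide margin, the log2 fold change was 1.23 ± 0.11, and the edgeR call held in all 14 alternative analyses. In WT cells its level already exceeded that of 89.5% of tested regions.

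A further region inside Itgax (128138346 to 128138777) had 72.7, 61.1, 70.9 and 47.6 CPM in OPA1-deficient libraries and 21.6, 39.3, 34.2 and 31.4 CPM in WT libraries. The groups did not overlap, and OPA1-deficient replicate 4 came closest to WT replicate 2, and the log2 fold change was 1.00 ± 0.16. The other called region lay 428 bp before the Itgax model (128128823 to 128129098), with 14.5, 14.0, 17.0 and 15.3 CPM in OPA1-deficient libraries and 8.21, 6.23, 7.59 and 7.17 CPM in WT libraries. Each group's libraries lay close together and the groups did not overlap, with a log2 fold change of 1.06 ± 0.19. Each of these calls was lost in 7 of the 14 alternative analyses, among them limma-voom and those in which OPA1-deficient replicate 1, 2 or 3 or WT replicate 3 or 4 was left out, at log2 fold changes that stayed between 0.86 and 1.13.

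The region over the Itgax start itself (128129222 to 128129684), which contains the whole promoter window printed above, differed less. It had 32.3, 33.0, 32.3 and 25.6 CPM in OPA1-deficient libraries and 17.5, 28.2, 23.4 and 20.1 CPM in WT libraries. Replicate 4 of the OPA1-deficient group fell below WT replicate 2, so the groups overlapped, and the log2 fold change was 0.47 ± 0.15 with no call.

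Itgam, the CD11b gene (128062640 to 128118491), had 7 regions in the stretch. They summed to 97.87, 95.17, 114.1 and 88.38 CPM in OPA1-deficient libraries, against 51.08, 68.87, 64.55 and 66.71 CPM in WT libraries. No library crossed between the groups, and the ratio was 1.57, with a median log2 fold change over the 7 regions of 0.71. Itgam thus contributed 21.5% of the summed difference, less than its 32.9% of the WT level. The region over the Itgam start, with overlapping groups at -0.07 ± 0.21, lies outside the stretch and is not counted here. Of the Itgam regions in the stretch, 5 of 7 had groups that did not overlap, beside 1.84% of all tested regions with OPA1-deficient libraries higher.

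The most accessible of them (128089137 to 128089511) had 25.5, 24.5, 32.0 and 26.1 CPM in OPA1-deficient and 15.1, 20.4, 21.7 and 20.6 CPM in WT libraries, a log2 fold change of 0.48 ± 0.15. The smallest change was at 128080086 to 128080391, with a log2 fold change of 0.22 ± 0.27 and overlapping groups. The largest was toward the 3′ side, at 128105358 to 128105640, with 4.42 to 6.72 CPM in OPA1-deficient and 1.27 to 2.49 CPM in WT libraries (1.31 ± 0.32). That region met the count filter only with the OPA1-deficient libraries. A region 415 bp past the end of the gene (128118906 to 128119369) had 18.8, 16.0, 20.1 and 13.9 CPM in OPA1-deficient libraries and 6.99, 11.8, 7.17 and 9.32 CPM in WT libraries. Its groups did not overlap, and the log2 fold change was 0.96 ± 0.20.

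Itgad, the CD11d gene (128173933 to 128205504), was the least accessible of the 3, at 15.7 CPM per kb of region in OPA1-deficient and 6.77 CPM per kb in WT libraries. Its 2 regions summed to 17.64, 13.78, 12.2 and 14.43 CPM in OPA1-deficient libraries, against 6.841, 5.765, 5.907 and 6.455 CPM in WT libraries. The ratio was 2.32, and the share of the summed difference 4.92%. The region with the higher level (128192952 to 128193484) had 9.39, 10.3, 10.1 and 11.3 CPM in OPA1-deficient libraries and 5.63, 4.52, 4.64 and 4.48 CPM in WT libraries, with groups well apart and a log2 fold change of 1.08 ± 0.22. The other (128191457 to 128191847) had only 1.22 to 1.97 CPM in WT libraries, and its 1.57 ± 0.42 leaned on OPA1-deficient replicate 1, at 8.25 CPM beside 2.15 to 3.44 CPM in the other OPA1-deficient libraries. This low region, too, met the count filter only with the OPA1-deficient libraries.

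Regions between the genes were higher too. The 5 regions of the stretch outside the 3 gene models summed to 54.32 ± 5.73 CPM in OPA1-deficient and 26.64 ± 2.79 CPM in WT libraries, a ratio of 2.04. The groups did not overlap in any of the 5 regions, beside 1.84% of all tested regions, and these were delimited for being raised. Among the 5, a region 3344 bp before Itgad (128170089 to 128170589) had the largest log2 fold change of the stretch, 1.63 ± 0.34, at 4.42 to 10.8 CPM in OPA1-deficient and 1.09 to 3.41 CPM in WT libraries. With WT counts this low, that region met the count filter only with the OPA1-deficient libraries, so its fold change is a description. One more region between Itgam and Itgax (128121796 to 128121874) had too few counts to be tested and held 18, 12, 10 and 7 counts in OPA1-deficient libraries, against 5, 2, 2 and 3 counts in WT libraries.

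**Figure D2:**
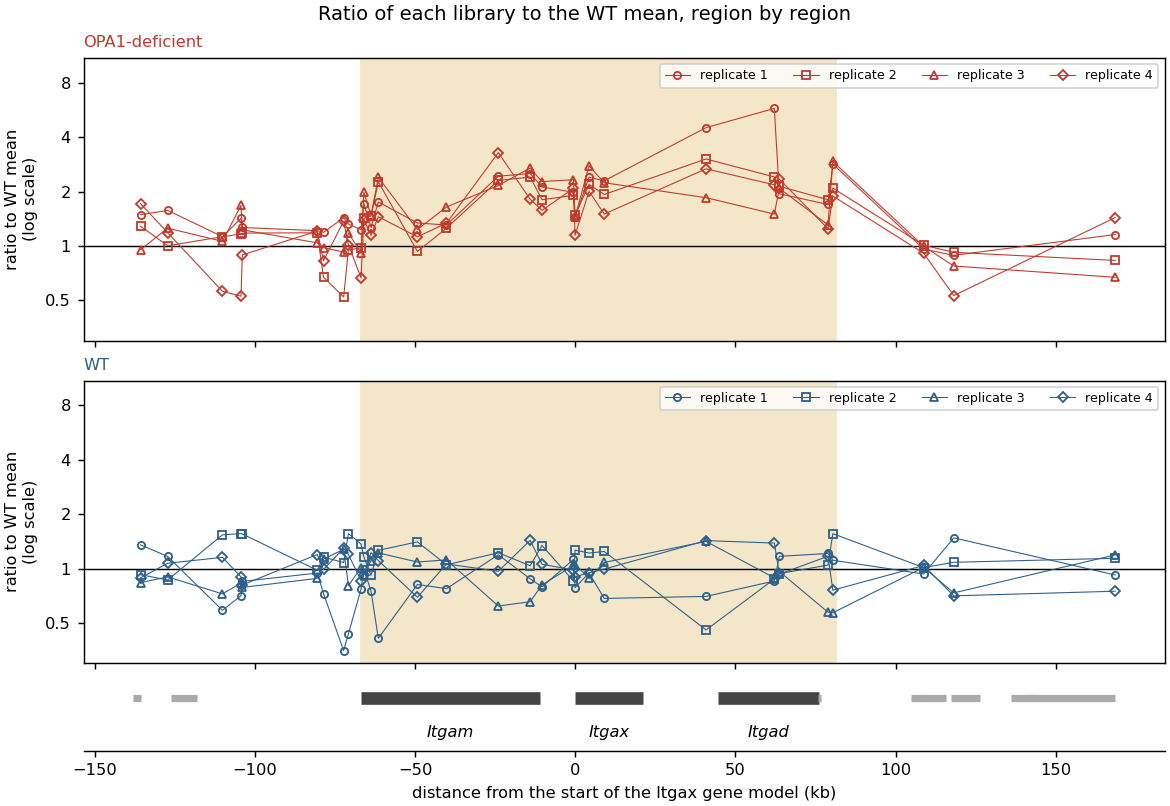
Ratio of each library to the WT mean (log scale), region by region, against distance in kb from the start of the Itgax gene model, with OPA1-deficient libraries in the upper panel and WT libraries in the lower one; the raised stretch is shaded and gene models are drawn underneath. Inside the stretch the median ratios of the OPA1-deficient libraries are 1.58 to 2.09, and the highest single ratio is 5.79, in replicate 1 inside Itgad. Summed over the window regions left of the stretch, OPA1-deficient replicates 1 to 4 stand at 1.27, 0.984, 1.06 and 0.97, with WT replicate 2 at 1.23. Over those right of it the OPA1-deficient libraries stand at 0.967, 1.0, 0.981 and 0.919.

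The difference was shared by the single OPA1-deficient libraries. Replicates 1, 2, 3 and 4 had a median ratio to the WT mean over the 17 regions of 1.99, 1.93, 2.09 and 1.58, and they exceeded all 4 WT libraries in 16, 16, 16 and 14 of the regions. The 17 regions were delimited because they were raised in these same libraries, so these counts are a description and carry no test. Replicate 4 was the lowest of its group in 10 of the 17 regions and replicate 3 the highest in 9. The single value below the WT mean was 0.934, in replicate 2.

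Within the stretch the change was uneven. Log2 fold changes ran from 0.22 to 1.63 with a median of 1.00, and their SD between regions was 0.41, against a median standard error of 0.22. Around the weighted mean of 0.88 (a ratio of 1.84), 11 of 17 regions lay within 2 standard errors. Below that range were 3 regions of Itgam, at 128065605, 128080086 and 128089137, and the region at the Itgax start. Above it were the most accessible region of Itgax and the region before Itgad. When the stretch was divided once more by least squares, after its values were seen, the 5 regions on the Itgam side averaged 0.56 (a ratio of 1.47) and the 12 from 128105358 onward 1.03 (a ratio of 2.04). In each OPA1-deficient library alone the division fell elsewhere, inside Itgax, with 0.44 to 0.79 on the left and 0.82 to 1.23 on the right.

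**Figure D3:**
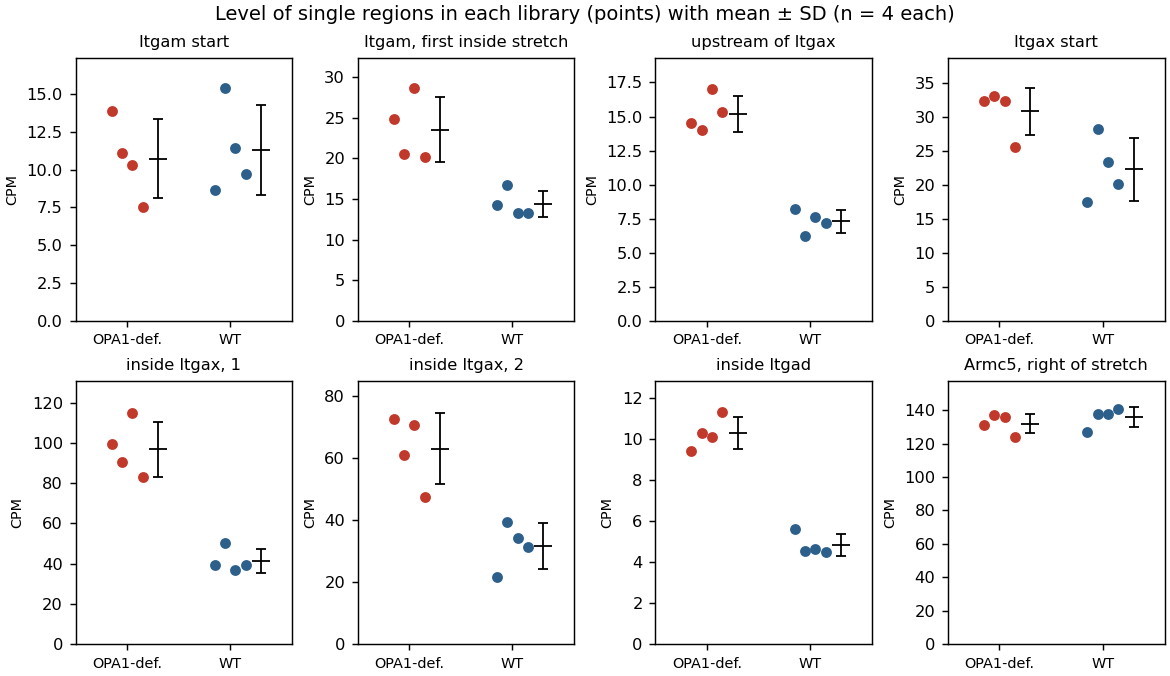
CPM in every library (points) with the group mean ± SD (horizontal bar and whiskers, n = 4 each) for 8 single regions of the cluster, with OPA1-deficient libraries left of WT libraries in each panel. The most accessible region inside Itgax has 83.1 to 115 CPM in OPA1-deficient and 36.7 to 50.3 CPM in WT libraries. At the Itgam start and at Armc5, the first tested regions outside the stretch on the left and right, the groups overlap.

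Both borders are known only to the spacing of the regions. They were placed by fitting 1 raised step, weighted by the inverse squared standard errors, to the log2 fold changes of the 74 tested regions in the window and 500 kb on each side. The 57 regions outside the step averaged 0.01, a ratio of 1.0. The left border fell in a gap of 500 bp inside the first part of Itgam, past which the rise was uneven. There the first 5 regions of the stretch averaged 0.56 and the next 12 averaged 1.03. The right border fell in a gap of 27703 bp between Cox6a2 and Armc5, where no region shows how the rise ended.

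At the left border, the region over the Itgam start (128062507 to 128062785), which shares 133 bases with the promoter window printed above, had 13.9, 11.1, 10.3 and 7.54 CPM in OPA1-deficient libraries and 8.67, 15.4, 11.4 and 9.68 CPM in WT libraries. The groups overlapped fully, and the log2 fold change was -0.07 ± 0.21. The sign of that value turned to 0.07 without OPA1-deficient replicate 4 and to 0.12 without WT replicate 2. The next region, 500 bp further (128063285 to 128063773), had 24.8, 20.5, 28.6 and 20.2 CPM in OPA1-deficient libraries and 14.3, 16.7, 13.3 and 13.3 CPM in WT libraries. There the groups were apart, with a log2 fold change of 0.71 ± 0.16 and a step of 0.78 across the gap. The region after it (128065605 to 128065928) had 15.9, 18.5, 18.6 and 14.4 CPM in OPA1-deficient libraries and 9.43, 11.5, 13.9 and 15.4 CPM in WT libraries, overlapping again at 0.43 ± 0.18. On the outer side, a region 3850 bp before the gene (128058616 to 128058790) had 5.55, 3.99, 4.96 and 4.26 CPM in OPA1-deficient libraries and 1.82, 6.54, 3.38 and 5.02 CPM in WT libraries. The groups overlapped there at 0.17 ± 0.31, which turned to -0.09 without WT replicate 1.

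At the right border, the last region inside, 3393 bp from Cox6a2 (128209759 to 128210087), had 7.40, 5.44, 7.64 and 4.92 CPM in OPA1-deficient libraries and 2.89, 4.05, 1.48 and 1.97 CPM in WT libraries. The groups did not overlap, at 1.26 ± 0.31, in a region that met the count filter only with the OPA1-deficient libraries. The region before it (128208256 to 128208546) had 9.39, 9.97, 7.24 and 6.89 CPM in OPA1-deficient libraries and 6.69, 5.77, 3.16 and 6.46 CPM in WT libraries, apart by a small margin at 0.58 ± 0.25. The first region outside, shared by the ends of Armc5 and 9130023H24Rik (128237790 to 128238772), had 131, 137, 136 and 124 CPM in OPA1-deficient libraries and 127, 138, 138 and 141 CPM in WT libraries. It had the highest mean level in the window, its groups overlapped, and its log2 fold change was -0.04 ± 0.08, a step of 1.3 across the gap. The next, inside Tgfb1i1 (128247538 to 128247769), had 3.84, 3.99, 3.35 and 2.30 CPM in OPA1-deficient libraries and 6.39, 4.67, 3.16 and 3.05 CPM in WT libraries, with overlapping groups at -0.38 ± 0.31.

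**Figure D4:**
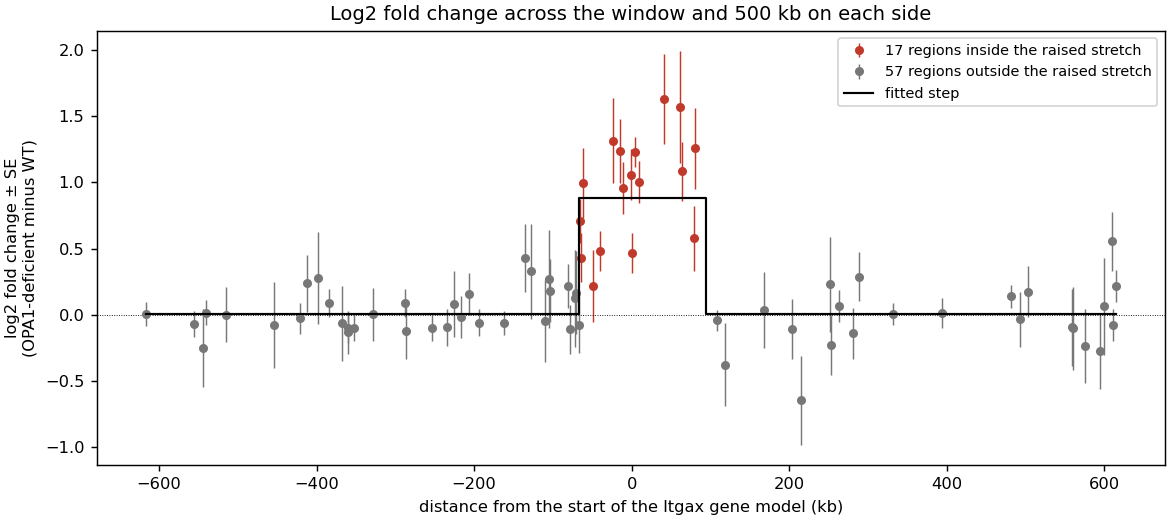
Log2 fold change (OPA1-deficient minus WT) ± standard error of the tested regions within 500 kb of the window against distance in kb from the start of the Itgax gene model, with regions inside and outside the raised stretch in different colours and the fitted step as a black line. The 17 regions inside average 0.88 and the 57 outside 0.01.

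On either side of the stretch the groups differed by less than the larger of their SDs. The 10 window regions to its left summed to 79.56 ± 10.2 CPM in OPA1-deficient and 74.4 ± 13.1 CPM in WT libraries, and the 3 to its right to 140.3 ± 5.11 and 145.0 ± 4.98 CPM. Over the 34 regions to the left within 500 kb of the window the sums were 956.1 ± 46.1 CPM in OPA1-deficient and 963.6 ± 57.0 CPM in WT libraries, and over the 23 to the right 586.0 ± 9.85 and 574.6 ± 14.0 CPM.

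The same step was then fitted to each library alone, as the log2 ratio to the WT mean. All 4 OPA1-deficient libraries gave the same 17 regions, with a raised mean of 0.91, 0.80, 1.00 and 0.62 and an outside mean of -0.02, 0.02, 0.05 and -0.08 in replicates 1 to 4. These 4 fits share the same WT mean as denominator and cover an area around the chosen window, so they are not independent of one another. Each WT library, set against the other 3, gave a different stretch. These began at 128523314 in WT replicate 1, 127585115 in replicate 2, 127614573 in replicate 3 and 127511795 in replicate 4, with raised means of 0.15 to 0.43. The stretch of WT replicate 2 held 44 regions and ran to 128138777. It thus took in Itgam and the Itgax regions of the cluster, at a raised mean of 0.20. The stretches of the other WT libraries lay outside the cluster.

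The weighted residual sum of squares of the fit was 98.25. Moving the right border outward by 1 region brought it to 200.1. That move takes in the Armc5 region, whose standard error of 0.08 gives it a large weight. The other moves by 1 region brought the sum of squares to 113.4 (right border inward), 116.9 (left border outward) and 115.3 (left border inward). Summed over the 3 regions on each side of the right border, the OPA1-deficient libraries stood at 2.02, 1.99, 1.93 and 1.79 times the WT mean inside and at 0.967, 1.0, 0.981 and 0.919 outside. The Armc5 region held 136 of the 145 CPM of the outside sum in WT libraries, so the outside values mostly restate that region. At the left border the OPA1-deficient libraries stood at 1.55, 1.58, 1.86 and 1.31 inside and at 1.29, 0.89, 0.976 and 0.874 outside. OPA1-deficient replicate 1 was thus also high just outside the left border, while the WT libraries there ran from 0.618 to 1.36. Over all 10 window regions left of the stretch that replicate stood at 1.27, beside 0.97 to 1.06 in the other OPA1-deficient libraries and 1.23 in WT replicate 2.

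The size of the raised stretch was set against other stretches of 17 consecutive tested regions across the genome. Over 58847 such overlapping stretches outside it, the ratio of the summed means had a median of 0.99, with 95% of them between 0.892 and 1.08 and extremes of 0.733 and 1.31, beside 1.88 in the cluster. In 0.656% of the stretches all OPA1-deficient libraries were above all WT libraries. Since the borders of the integrin stretch were placed to maximise its step, this is a description of scale and not a test.

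**Figure D5:**
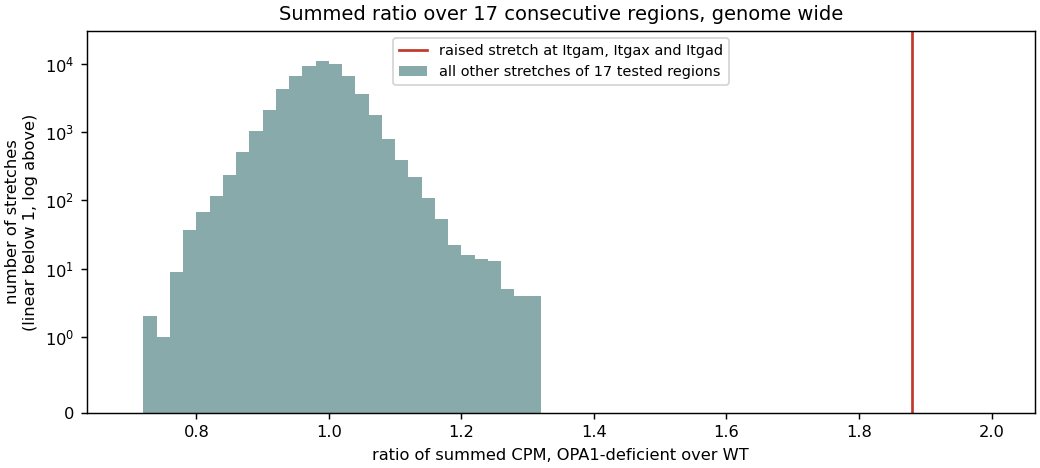
Number of stretches of 17 consecutive tested regions (linear below 1 and log above) by the ratio of their summed means, OPA1-deficient over WT, with the integrin stretch marked. The other stretches end at 1.31, and the integrin stretch is at 1.88.

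The genes that work with the CD11 chains at other loci showed no called difference. Among 30 genes of the β2 chain, integrin activation and integrin signalling, 29 had a tested region within 1 kb of a gene end, and 0 were called by edgeR, DESeq2 or limma-voom, with 1 at an unadjusted p under 0.05. For comparison, 1 of 13251 regions at gene ends was called (0.00755%), which is the region before Itgax, and 565 (4.26%) had an unadjusted p under 0.05. The log2 fold change was above 0 for 13 and below 0 for 16, with a median of -0.05 beside -0.03 over all gene-end regions. That median turned to 0.03 without OPA1-deficient replicate 4 and to 0.02 without WT replicate 2.

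Itgb2, whose CD18 chain every receptor of the cluster needs, averaged 28.6 ± 3.81 CPM in OPA1-deficient and 30.9 ± 6.71 CPM in WT libraries (-0.11 ± 0.15). Itgal, the CD11a gene, lies on the same chromosome outside the window and averaged 23.8 ± 3.77 and 21.7 ± 4.88 CPM (0.13 ± 0.16). The smallest p was at Ilk, the integrin-linked kinase gene, with 86.9 ± 4.51 CPM in OPA1-deficient and 102 ± 6.32 CPM in WT libraries, a log2 fold change of -0.23 ± 0.09 and an adjusted p of 0.613 by edgeR. Vcl, which encodes vinculin of adhesion sites, followed with 0.18 ± 0.09, and Rasgrp2, an exchange factor upstream of integrin activation, with 0.21 ± 0.14.

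Of 14 genes for ligands of these integrins, 7 had a tested region at a gene end, 3 with a log2 fold change above 0 and 4 below, and 0 were called by edgeR, DESeq2 or limma-voom, with 1 at an unadjusted p under 0.05, beside the same 4.26% of gene-end regions. That gene was Vcam1, an endothelial adhesion molecule, with 4.76 ± 1.06 CPM in OPA1-deficient and 7.38 ± 2.11 CPM in WT libraries and an edgeR adjusted p of 0.701. Icam2 (0.20 ± 0.21) and Icam4 (-0.10 ± 0.12), which encode ligands of CD11 receptors, came next, and Icam1, a ligand of CD11a and CD11b receptors, was at 0.01 ± 0.13.

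Cells that carry more CD11b or CD11d than cDC1 were looked for through their marker genes at gene ends, and 0 markers of any list were called by edgeR, DESeq2 or limma-voom. At an unadjusted p under 0.05 were 3 monocyte and macrophage markers and 1 NK cell marker, beside 4.26% of gene-end regions. Their part in the difference at the cluster was not tested. The 6 cDC2 markers with a tested region summed to 62.5 to 71.7 CPM in OPA1-deficient and 71.0 to 82.3 CPM in WT libraries, all 6 with log2 fold changes below 0 (median -0.15). The 13 monocyte and macrophage markers summed to 136 to 169 CPM in OPA1-deficient and 149 to 192 CPM in WT libraries, with a median of -0.11 and 5 of 13 above 0. The 4 neutrophil markers summed to 46.6 to 77.4 and 39.98 to 79.9 CPM, and the 3 NK cell markers to 10.3 to 16.5 and 10.3 to 16.3 CPM. The 3 B cell, 2 T cell and 2 pDC markers had ranges of 30.4 to 36.4, 71.3 to 98.7 and 48.65 to 60.5 CPM in OPA1-deficient libraries, overlapping the WT ranges of 32.6 to 42.2, 79.97 to 106 and 55.5 to 60.1 CPM. Defining markers of several types had no tested region at a gene end, among them Ly6g and Mpo of neutrophils, Ncr1 of NK cells, Pax5 of B cells, Cd3e of T cells and Mgl2 of cDC2.

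Regions elsewhere were ranked by how closely they followed the stretch across the 8 libraries. Likeness was the root mean square difference between a region's log2 ratios to the WT mean and those of the summed stretch, over 29574 regions with a mean of at least 6.76 CPM and a gene within 50 kb. Inside the stretch itself, single regions lay between 0.13 and 0.64 of the sum. The closest elsewhere was inside Fnbp1 on chromosome 2 (31036691 to 31037203), at 0.18, with 16.9, 13.1, 15.6 and 11.8 CPM in OPA1-deficient libraries and 7.91, 10.4, 8.23 and 8.07 CPM in WT libraries. Regions inside Glud1 (0.23), 30390 bp from Plcb4 (0.25), inside Eya1 (0.26) and 6376 bp from Hcar1 (0.26) followed, with ratios of the means of 1.62, 1.9, 1.7 and 1.6. They were picked for this likeness, so their ratios carry no test.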

How the data were processed

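Open chromatin of sorted splenic cDC1 was measured by ATAC-seq in 4 OPA1-deficient and 4 WT libraries. The values are raw counts per region, deposited by the authors as 1 table for all libraries without normalization. The submitters' processing notes name MACS2 2.1.0.20150603, bedtools, SAMtools, Picard 1.65 and cutadapt 1.9, and the builds mm10 and GRCm38. Their settings, the shift of read ends, the rule for the common regions, and whether starts count from 0 or 1 are not given in the sources used here, and all of these could move a count near a region's edge.

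Regions were filtered with filterByExpr (659 removed), scaled with TMM and fitted over the whole table with edgeR 4.0.16 in R 4.3.3 (quasi-likelihood test, robust, no covariates, Benjamini-Hochberg over 59247 regions, calls at 0.05). The filter asks for enough counts in at least 4 libraries of any genotype. Regions at 128105358, 128170089, 128191457 and 128209759, with WT levels down to 1.09 CPM, met it only with the OPA1-deficient libraries. Their fold changes, and their part in the counts of regions over the stretch, are thus descriptions. The common dispersion was 0.027. Ratios of single libraries used a pseudocount of 0.5 CPM on the log2 scale. Gene spans came from RefSeq (GRCm38.p6) without strand or exons, so exons, introns and UTRs were not assigned. DESeq2 1.42.0 and limma-voom (limma 3.58.1) were alternatives, as were other scalings, no filter, a replicate block, other step fits and leaving out each library.

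The members and lists were chosen with earlier results of these data known. Regions given per library were those at ends of the 3 genes, called regions, the 2 nearest each border and the most accessible per gene; from lists, up to 3 genes with the smallest p. Itgb2, Itgal, Icam1, Xcr1 and the regions named for an extreme value were added after values were seen. The region just outside the left limit of the window is not reported here. P-values cover only how these libraries differ from one another, and shares of counts carry counting error beside it.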

Additional observations from a re-analysis of the deposited data

Results flagged for a closer look

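Each group of 4 values examined was 1 genotype at a window region or in a sum over the stretch, its parts or its surroundings within 500 kb of the window. Of 80 such groups, 6 held a library far from the other 3, where chance gives about 1 in 20 for separate groups. The sums share regions with the single values, so these groups are not separate. OPA1-deficient replicate 4 stood apart at the Itgax start region (128129222), with 25.6 CPM beside 32.3 to 33.0 CPM, and at 128019252 near Trim72, left of the raised stretch, with 2.62 CPM beside 4.96 to 5.26 CPM. WT replicate 1 stood apart at 128192952 inside Itgad, with 5.63 CPM beside 4.48 to 4.64 CPM, and in the sum of the window regions right of the stretch, with 137.6 CPM beside 146.8 to 147.9 CPM. WT replicate 2 had 11.7 CPM at 128025426, near Trim72, beside 5.91 to 6.39 CPM. WT replicate 4 had 1.97 CPM at 128191457 inside Itgad beside 1.22 to 1.27 CPM, a difference of a few counts.

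The region between Itgam and Itgax that the filter removed (128121796 to 128121874) held a signal outside the tested table, with 47 counts summed over the OPA1-deficient libraries and 12 over the WT libraries.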

How the results depend on the processing

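The borders of the raised stretch were the same under all 12 alternatives tried for them. Its summed ratio stayed between 1.8 and 1.98, its median log2 fold change between 0.86 and 1.13, and the groups did not overlap in 14 window regions under either other scaling and in 14 to 16 with a library left out, a step that cannot lower this count. The number of called regions was less stable: 3 in the main analysis, with DESeq2 size factors, with total counts and without the filter. It was 7 with the DESeq2 test (0.0179% of all regions called higher), 1 with limma-voom (0.00169%) and 1 with the replicate block. The replicate block called 1 of all 59247 regions and lost the calls at 128128823 and 128138346. Leaving out 1 library gave 1 to 7 calls in the window. These were 7 of 68 calls over all regions where WT replicate 2 was dropped, 5 of 22 for OPA1-deficient replicate 4 and 3 of 8 for WT replicate 1. They were 1 of 4 for OPA1-deficient replicate 2, and 1 of 1 for OPA1-deficient replicates 1 and 3 and WT replicates 3 and 4. Calls over all regions thus rose and fell with those in the window. The cause was not tested.

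Replicate numbers showed no pairing of the libraries in 1 check: same-numbered pairs correlated at -0.143 to -0.00988 in their deviations from the group means, and 0 of 8 libraries correlated best with its own number. Deviations within a group are tied to one another, so this check cannot decide whether same-numbered libraries were handled together. Among 210 values of the named regions, 187 kept their direction and side of the threshold, 14 lost and 6 gained a call, and 3 turned sign when a library was left out: -0.09 at 128058616 for WT replicate 1 (range -0.09 to 0.48), and 0.07 and 0.12 at the Itgam start for OPA1-deficient replicate 4 and WT replicate 2 (range -0.23 to 0.12). The medians of the partner and ligand lists ran from -0.08 to 0.03 and from -0.09 to 0.07. Regions with few counts limit what single libraries show, among them 128191457 in Itgad, 128170089 before it, 128105358 in Itgam and 128209759 at the right border.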

Other observations

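The stretch of 17 regions with the next highest ratio lay on chromosome 2 (135411786 to 135853317) and includes the region near Plcb4 that resembled the integrin pattern. Its summed level was 151.1, 149.9, 156.9 and 144.8 CPM in OPA1-deficient libraries and 120.7, 109.7, 116.7 and 113.5 CPM in WT libraries, a ratio of 1.31 with groups that did not overlap. Single regions there were mixed: 14 of 17 had a log2 fold change above 0, the range was -0.56 to 1.47, the groups were apart in 6 of 17, and 0 were called by edgeR. It was picked as the highest of the overlapping stretches and carries no test.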
